A study of Mus musculus with 8 samples.

Results

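The genes described here are 10 that mark mast cells and basophils: the protease genes Mcpt1, Mcpt2, Mcpt4, Mcpt8, Cma1, Cpa3 and Tpsb2, the chains Fcer1a and Ms4a2 of the high-affinity IgE receptor, and the receptor gene Kit. They were chosen by symbol, through the Entrez identifiers of the count table, and all 10 were found among 23469 genes. Lung RNA was sequenced from C57BL/6 wild type mice (WT) and C57BL/6 DDAH1-transgenic mice (TG), which carry a transgene for dimethylarginine dimethylaminohydrolase 1, an enzyme that breaks down the nitric oxide synthase inhibitor asymmetric dimethylarginine. Each genotype received intratracheal instillations of 50 µl of PBS alone or with 100 µg of house dust mite extract (HDM), given 3 times weekly over 3 weeks, and the lungs were taken 24 hours after the last treatment. Each of the 4 groups is 1 pool of RNA from 4 mice, from which 2 libraries were made (replicate 1 and replicate 2). Every SD below is therefore the spread between 2 libraries of one pool, which is technical, and no p-value covers the variation between mice. The age and sex of the mice and the promoter of the transgene are not given in the sources used here.

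Mast cells are tissue-resident granulocytes that store proteases, histamine and heparin in granules and release them when an allergen cross-links IgE bound to the high-affinity receptor on their surface. In mice, mucosal mast cells, which increase in the airways after allergen exposure, are known for the chymases Mcpt1 and Mcpt2, and connective tissue mast cells, which sit around airways and vessels, for Mcpt4, Cma1, Tpsb2 and Cpa3. Basophils are circulating cells that share the receptor for IgE and are known in mice for the protease Mcpt8. In bulk RNA, fewer cells of a type and less RNA per cell cannot be told apart.

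Total counts per library lay between 5694928, in replicate 1 of HDM-treated DDAH1-transgenic mice, and 11929374. At this depth 3 counts in a library, taken as the floor, are worth between 0.232 and 0.449 CPM (counts scaled to library size, here counts over the TMM-scaled size of each of the 8 libraries). Libraries of one pool were not alike within sampling noise (mean chi-square per gene between 13.5 and 29.5) and were kept as replicates. Xist, a marker of female cells, had between 113 and 197 counts after PBS and between 20303 and 31372 after HDM, whereas the Y-linked gene Ddx3y had between 621 and 719 against 2 or 3. HDM and the sex of the pooled mice therefore cannot be told apart in any comparison of HDM with PBS. Ddah1 stood at 76.9 and 53.8 CPM in PBS-treated DDAH1-transgenic libraries against 47.7 and 34.3 CPM in wild type. After HDM the order was reversed, at 34.9 and 33.4 CPM against 43.1 and 44.7 CPM. It was not called between genotypes after PBS or after HDM. Whether reads of the transgene are counted in this row is not given in the sources used here, and the genotype labels are used as given. The thymocyte genes summed to 73.5 and 77.1 CPM in PBS-treated wild type libraries and to between 14.6 and 26.5 CPM in the others, and the skeletal muscle genes to 41.4 and 44.2 CPM against between 97.6 and 214 CPM.

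Only Kit was well measured. It had between 456 and 1612 counts in each library, while the other 9 genes together had between 25 and 164 counts per library. Per kilobase of transcript and averaged over the 4 groups, Kit stood at 22.2 CPM, Cpa3 at 1.78, Mcpt2 at 1.12, Cma1 at 0.624, Ms4a2 at 0.547, Mcpt4 at 0.334, Mcpt1 at 0.327, Tpsb2 at 0.185, Fcer1a at 0.104 and Mcpt8 at 0.0347. The reads were counted in the coding region. Per kilobase of coding length the order was the same, with Kit at 39.3 CPM, Cpa3 at 2.05 and Mcpt2 at 1.62. Per kilobase of transcript, the single libraries ranged from 0 to 5.67 CPM for Cpa3 and from 0 to 3.79 for Mcpt2. The order below Kit therefore lies within the spread of the libraries. Defining mast cell markers were therefore at or near the floor in many libraries, and the basophil marker Mcpt8 had 3 counts in 1 library and 0 in the other 7. Because Kit is also made by other cells, the label of mast cell and basophil genes rests on very few reads here.

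**Figure D1:**
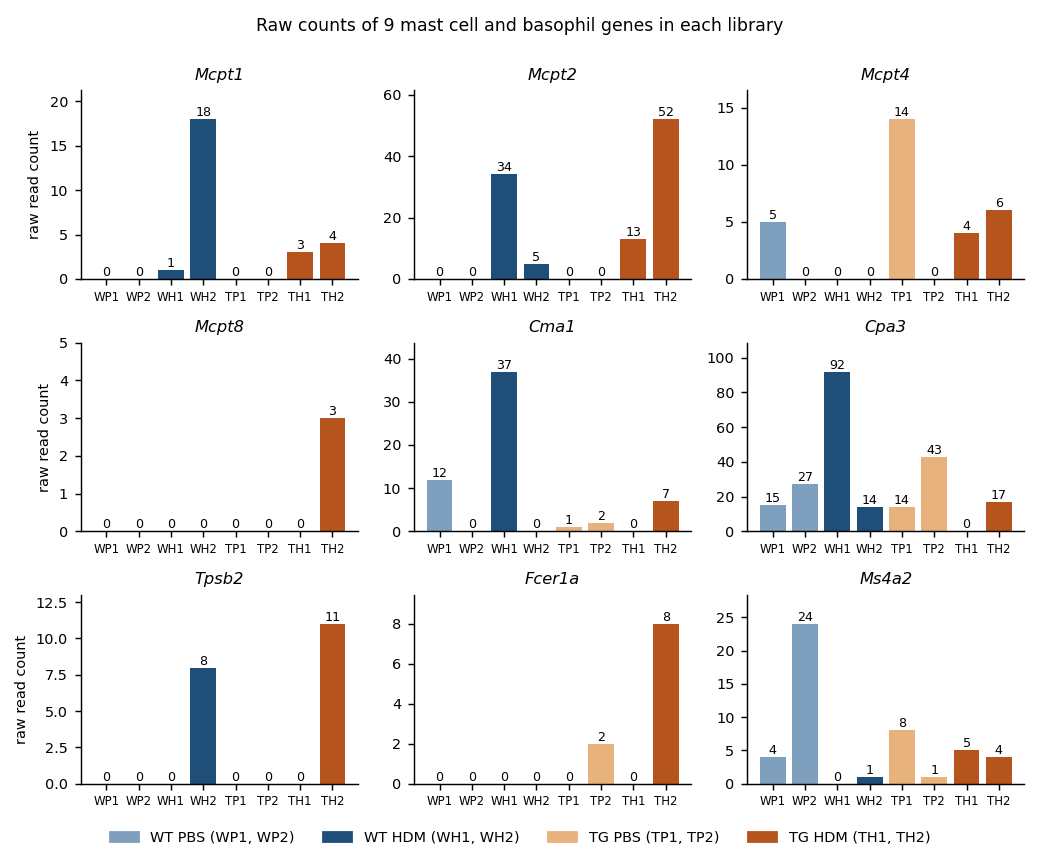
Raw read counts (y axis, a separate scale for each gene) of the 9 genes other than Kit in the 8 libraries (x axis), with WP, WH, TP and TH for PBS-treated wild type, HDM-treated wild type, PBS-treated DDAH1-transgenic and HDM-treated DDAH1-transgenic mice. Mcpt1 and Mcpt2 were at 0 in all 4 PBS-treated libraries and above 0 in all 4 HDM-treated libraries, and most other genes were unequal between the 2 libraries of a pool.

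The chymase genes and Mcpt8 lie together in the chymase locus of chromosome 14 (GRCm38), all annotated as protein-coding. Cma1 (Entrez 17228) spans chr14:55941451-55944675, Mcpt1 (17224) chr14:56017964-56020391, Mcpt2 (17225) chr14:56021584-56044635, Mcpt4 (17227) chr14:56059744-56062310 and Mcpt8 (17231) chr14:56082163-56085499. Cpa3 (12873) lies at chr3:20215616-20242209, Tpsb2 (17229) at chr17:25366308-25368096, Fcer1a (14125) at chr1:173221269-173227232, Ms4a2 (14126) at chr19:11615517-11623790 and Kit (16590) at chr5:75574987-75656722. Reads of 50 bases can be shared between relatives: 5.48% of the 50-base stretches of Mcpt4 transcripts also occur in Cma2 or Mcpt9, 5.38% of those of Cma1 in the predicted gene Gm48934 and 2.10% of those of Ms4a2 in Ms4a4b. The transcripts of the other 7 genes shared no such stretch, so that Mcpt1 and Mcpt2 can be told from each other at this read length.

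The 250 bases before the starts of Mcpt1, a mucosal protease of the locus, and Mcpt4, a connective tissue protease of the same locus, are shown with those of Cpa3, which had the most counts of the granule proteases summed over the 8 libraries. The bases were taken from RefSeq (GRCm38.p6) and are written 5′ to 3′ on the strand of the gene, at chr14:56017714-56017963 on the plus strand for Mcpt1, chr14:56062311-56062560 on the minus strand for Mcpt4 and chr3:20242182-20242431 on the minus strand for Cpa3. The start used for Cpa3 lies inside the gene span given above, which reaches to chr3:20242209, so that the last bases of its stretch fall within that span. The capitals mark GATAA, a motif bound by GATA factors such as Gata2 (a transcription factor of mast cells), or its reverse complement TTATC.
Mcpt1: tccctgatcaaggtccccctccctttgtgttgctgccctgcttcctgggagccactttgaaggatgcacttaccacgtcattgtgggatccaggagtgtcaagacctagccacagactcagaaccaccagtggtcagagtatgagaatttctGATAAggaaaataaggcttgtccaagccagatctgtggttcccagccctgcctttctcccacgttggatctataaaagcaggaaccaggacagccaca
Mcpt4: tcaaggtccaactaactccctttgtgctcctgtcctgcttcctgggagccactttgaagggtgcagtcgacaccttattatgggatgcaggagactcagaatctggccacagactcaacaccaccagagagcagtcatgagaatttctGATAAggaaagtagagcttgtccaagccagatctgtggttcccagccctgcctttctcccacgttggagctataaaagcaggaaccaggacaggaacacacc
Cpa3: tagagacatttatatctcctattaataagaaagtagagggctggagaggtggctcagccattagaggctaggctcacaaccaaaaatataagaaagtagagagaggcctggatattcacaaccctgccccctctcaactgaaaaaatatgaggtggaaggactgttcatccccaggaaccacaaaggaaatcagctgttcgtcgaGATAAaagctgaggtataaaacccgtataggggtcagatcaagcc
The Mcpt1 and Mcpt4 sequences were identical in 213 of 260 columns of their alignment (81.9%), against at most 54.8% for any other pair of these genes. The motif, searched on both strands, occurred in 6 of the 8 promoters of these genes in the table, with none in Mcpt8 and Kit and 3 in Ms4a2, and in 22.6% of all 32851 mouse promoters of the same length. Mcpt2 and Tpsb2 were not in the table.

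The mucosal proteases were found in the HDM-treated libraries only. Mcpt2, a chymase-related protease of mucosal mast cells, had 34 and 5 counts in HDM-treated wild type mice with 13 and 52 in their DDAH1-transgenic counterparts, but 0 in each of the 4 PBS-treated libraries. All 4 HDM-treated libraries thus lay above all PBS-treated ones, although the counts differed between the libraries of a pool. The levels after HDM were 1.77 ± 1.79 CPM (SD, n = 2 libraries) in wild type and 2.99 ± 1.47 CPM in DDAH1-transgenic mice. By the observed counts against the floor of 3 counts over a group, this was at least 13.6-fold higher in wild type than after PBS. In DDAH1-transgenic mice it was at least 21.5-fold higher. Mcpt1, its neighbour and the other mucosal chymase, had 1 and 18 counts in wild type and 3 and 4 in DDAH1-transgenic mice after HDM and again 0 in every PBS-treated library. It was at least 6.65-fold higher in wild type and at least 2.32-fold higher in DDAH1-transgenic mice. A count of 0 in all 4 PBS-treated libraries with a count in all 4 HDM-treated libraries was seen in 23 of the 23372 named genes (0.0984%), and the reverse in 11 genes (0.0471%). Summed, Mcpt1 and Mcpt2 reached 3.13 and 2.31 CPM in wild type and 2.40 and 4.34 CPM in DDAH1-transgenic mice after HDM.

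In HDM-treated DDAH1-transgenic against PBS-treated DDAH1-transgenic mice, Mcpt2 passed the threshold (adjusted p = 0.0253, quasi-likelihood test of edgeR, adjusted by Benjamini-Hochberg over all 15086 genes tested). It had entered this test only through its counts after HDM, and the call was lost without either PBS-treated library (adjusted p = 0.173 and 0.198, same test). In wild type mice it did not reach the low-count filter, and without that filter its adjusted p was 0.0348 by the same test, with 8.54% of all genes called (in DDAH1-transgenic mice 0.00958, with 15.3% called). Mcpt1 did not reach the filter in any comparison, and without it had an adjusted p of 0.199 in wild type and 0.438 in DDAH1-transgenic mice. An exact permutation test of 2 against 2 libraries cannot go below p = 0.333, so that single genes were tested only in the fit across all genes.

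Of the connective tissue proteases, Mcpt4 and Cma1 had counts after PBS as well as after HDM, and Tpsb2 in 2 of the 4 HDM-treated libraries only. Mcpt4, the main chymase of connective tissue mast cells, had 5 and 0 counts in PBS-treated and 0 and 0 in HDM-treated wild type mice, and 14 and 0 in PBS-treated and 4 and 6 in HDM-treated DDAH1-transgenic mice. Cma1, an elastase-like chymase, had 12 and 0 counts in PBS-treated wild type, 37 and 0 in HDM-treated wild type, 1 and 2 in PBS-treated DDAH1-transgenic and 0 and 7 in HDM-treated DDAH1-transgenic mice. Both genes thus went from 0 to their highest counts between libraries of one pool. The groups overlapped in all comparisons but that of Mcpt4 between genotypes after HDM. There, 4 and 6 counts in DDAH1-transgenic against 0 and 0 in wild type mice were at least 3.60-fold higher, as observed against the group floor. Mcpt4 did not reach the low-count filter, and without it had an adjusted p of 0.507 by edgeR. Of all genes tested in that comparison, 24.6% were higher in DDAH1-transgenic mice without overlap. Summed, these 2 genes lay between 0 and 3.31 CPM after HDM and between 0 and 1.71 CPM after PBS. Tpsb2, a tryptase also known as Mcpt6, was detected only in replicate 2 of HDM-treated wild type (8 counts) and replicate 2 of HDM-treated DDAH1-transgenic mice (11 counts). By the observed counts against the group floor this was at least 2.80-fold and at least 3.65-fold higher than after PBS. These bounds rest on 1 library each, with 0 counts in the other HDM-treated library of both genotypes. Mcpt8 had 3 counts in replicate 2 of HDM-treated DDAH1-transgenic mice, which is at the floor, so that no difference of this basophil protease could be given.

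Cpa3, the carboxypeptidase that is stored with the chymases in the granules, had more counts over the 8 libraries than any other of the granule proteases. It had 15 and 27 counts in PBS-treated and 92 and 14 in HDM-treated wild type mice, and 14 and 43 in PBS-treated and 0 and 17 in HDM-treated DDAH1-transgenic mice. A single library, replicate 1 of HDM-treated wild type mice, held 92 of all its 222 counts. The levels in descending order were 4.81 ± 4.82 CPM in HDM-treated wild type, 2.97 ± 2.22 in PBS-treated DDAH1-transgenic, 1.86 ± 0.493 in PBS-treated wild type and 0.658 ± 0.931 in HDM-treated DDAH1-transgenic mice. The first 3 of these groups overlapped, and both libraries of the last lay below all others, at 0 and 1.32 CPM against 1.40 CPM for the next. In HDM-treated DDAH1-transgenic mice, 27.3% of all genes tested were lower without overlap than after PBS. Against HDM-treated wild type mice this share was 23.4%.

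The fitted changes of Cpa3 with HDM had opposite signs in the 2 genotypes, at 1.37 on the log2 scale (standard error 0.91, adjusted p = 0.448) in wild type and -2.05 (standard error 1.41, adjusted p = 0.386) in DDAH1-transgenic mice by edgeR. Neither passed the threshold, and nor did their difference, the interaction, at -3.40 (standard error 1.74, adjusted p = 0.379, unadjusted p = 0.0658, same test on all 8 libraries). Without replicate 1 of HDM-treated wild type mice the first value turned to -0.40. Between genotypes after HDM it was -2.71 (standard error 1.39, adjusted p = 0.367, edgeR). Without replicate 2 of HDM-treated DDAH1-transgenic mice, when only the library with 0 counts was left in that group, it became -8.47 (adjusted p = 0.0145), a fitted value that depends on the prior count. It was -1.01 without HDM-treated wild type replicate 1 and -1.84 without HDM-treated DDAH1-transgenic replicate 1. In DDAH1-transgenic mice the change with HDM ran from -7.69 without HDM-treated replicate 2 to -0.998 without PBS-treated replicate 2, with no call. Between genotypes after PBS it was 0.66 (standard error 0.90, adjusted p = 0.869, edgeR) and turned to -0.41 without PBS-treated DDAH1-transgenic replicate 2. By counting error alone, which leaves out the spread between libraries, the ratio of HDM to PBS was 2.65 (95% interval 1.84 to 3.88) in wild type and 0.297 (0.162 to 0.517) in DDAH1-transgenic mice.

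The genes most like Cpa3 across the 8 libraries, by the root-mean-square difference of centred log2 CPM among 13934 genes with a mean of at least 20 counts, were Cd248 (0.434), Ifitm10 (0.508), Lrrc27 (0.560), 1700001D01Rik (0.574) and Cyp3a13 (0.582), beside a range of 5.44 for Cpa3 itself. Cd248 had 28, 52, 83, 36, 30, 97, 2 and 38 counts in the order of groups WT PBS, WT HDM, TG PBS and TG HDM with replicate 1 first. These genes shared the low count in replicate 1 of HDM-treated DDAH1-transgenic mice, which was also the smallest library. Of the 10 genes only Kit and Cpa3 reached that mean, so that the other 8 could not be among them.

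The chains of the IgE receptor were scarce. Fcer1a, the chain that binds IgE, had 2 counts in replicate 2 of PBS-treated DDAH1-transgenic mice, 8 in replicate 2 of HDM-treated DDAH1-transgenic mice and 0 in the other 6 libraries, so that it was not detectable in wild type mice at this depth. Ms4a2, the beta chain that amplifies the signal, had 4 and 24 counts in PBS-treated and 0 and 1 in HDM-treated wild type mice, and 8 and 1 in PBS-treated and 5 and 4 in HDM-treated DDAH1-transgenic mice. The wild type libraries did not overlap, with the lower counts after HDM, which was also the case for 24.7% of all genes tested in that comparison. By counting error the ratio of HDM to PBS was 0.0375 (95% interval 9.17e-04 to 0.227) in wild type and 0.994 (0.350 to 2.83) in DDAH1-transgenic mice. Ms4a2 did not reach the low-count filter, and without it had an adjusted p of 0.271 in wild type and 0.974 in DDAH1-transgenic mice by edgeR.

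The 2 libraries of a pool divided these counts unequally. Of 13 pairs of gene and pool with at least 10 counts, Kit left out, 11 had an exact binomial 95% interval that did not hold the share given by library size, and 5 had all counts in 1 library. Among all genes with 10 to 106 summed counts in a pool, the same was seen for 51.7% and 8.01% of 16789 pairs. The second share ran from 4.81% in PBS-treated wild type to 14.9% in HDM-treated DDAH1-transgenic mice. These shares were not matched to the counts of each gene. Most pairs with all counts in 1 library had few, from 11 to 17, beside 37 for Cma1 in HDM-treated wild type mice. For Cpa3 in HDM-treated wild type mice 86.8% of counts (78.8 to 92.6) fell in replicate 1, for Cma1 100% (90.5 to 100) and for Mcpt2 87.2% (72.6 to 95.7), where library size gave 52.9%. Mcpt1 in the same pool lay the other way, with 5.26% (0.133 to 26.0). The libraries were made from amplified RNA, and each copy counts as a read, so that these intervals cover counting error only.

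**Figure D2:**
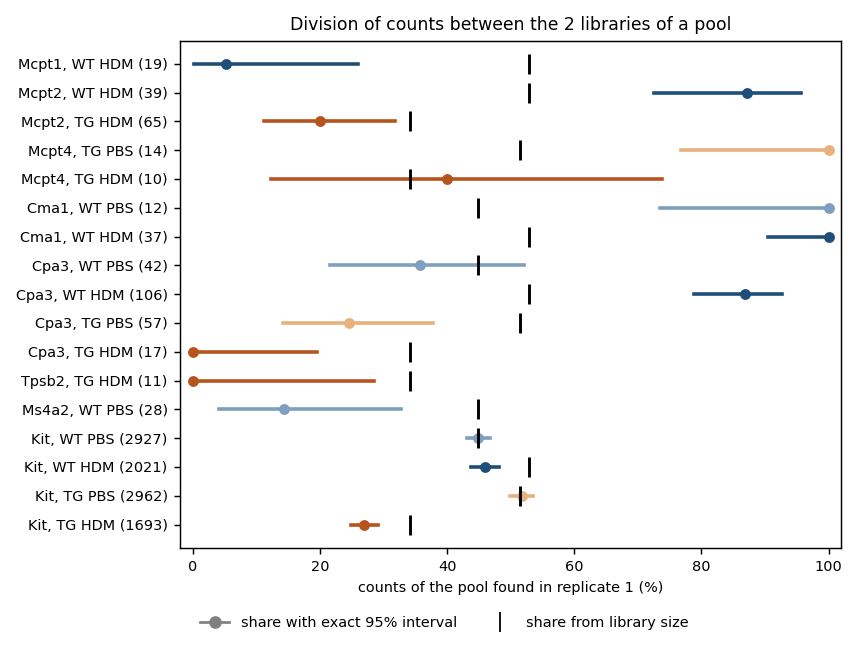
Share of the counts of a pool that fell in its replicate 1 (x axis, percent), for each gene and pool with at least 10 counts (y axis, summed counts in brackets). Points with lines are shares with exact binomial 95% intervals, vertical ticks the share given by library size; 11 of the 13 intervals above Kit leave out the tick.

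Kit, the receptor for stem cell factor that mast cells need for survival and that lung endothelial cells also carry, was lower in all HDM-treated than in all PBS-treated libraries of both genotypes. It stood at 132 and 132 CPM in PBS-treated and 82.8 and 110 CPM in HDM-treated wild type mice, and at 153 and 151 CPM in PBS-treated and 68.3 and 95.8 CPM in HDM-treated DDAH1-transgenic mice. In group means this was 152 ± 1.12 CPM in PBS-treated DDAH1-transgenic, 132 ± 0.382 in PBS-treated wild type, 96.3 ± 19.1 in HDM-treated wild type and 82.0 ± 19.4 in HDM-treated DDAH1-transgenic mice. The last 2 groups overlapped. Lower values after HDM without overlap were also seen for 24.7% of all genes tested in wild type and 27.3% in DDAH1-transgenic mice. The PBS-treated groups did not overlap, nor did 40.3% of all genes tested between them (19.3% higher in DDAH1-transgenic mice). In DDAH1-transgenic mice Kit fell with HDM by 0.87 on the log2 scale (standard error 0.23, adjusted p = 0.0271, edgeR). The adjusted p was 0.200 and 0.231 without either PBS-treated library, 0.0562 without HDM-treated replicate 1 and 0.0761 with an offset for gene length. In wild type mice the fitted change was -0.45 (standard error 0.18, adjusted p = 0.173, edgeR), and the adjusted p was 0.0264 without HDM-treated replicate 2. The interaction was -0.43 (standard error 0.30, adjusted p = 0.540), so that a difference between the genotypes was not shown. Between genotypes Kit differed by 0.19 (standard error 0.15, adjusted p = 0.734) after PBS and by -0.19 (standard error 0.25, adjusted p = 0.763) after HDM, by the same test.

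A list of 6 endothelial genes was also lower in sum after HDM. Their sum was 1854 and 1816 CPM in PBS-treated and 1334 and 1276 CPM in HDM-treated wild type mice, and 2180 and 2259 CPM in PBS-treated and 884 and 1085 CPM in HDM-treated DDAH1-transgenic mice. With HDM, 2 of the 6 were called lower in wild type and 4 of the 6 in DDAH1-transgenic mice, beside 2.3% and 5.35% of all genes. Among them in both was Cdh5, the cadherin of endothelial junctions (log2 fold changes of -0.54 and -1.30, adjusted p = 0.00520 and 6.67e-04, edgeR). Kit came to between 6.21% and 8.83% of the endothelial sum in the 8 libraries. A fall with HDM was not particular to the endothelial list. A list of 6 lung epithelial genes summed to 40056 and 47386 CPM in PBS-treated and 18911 and 22287 CPM in HDM-treated wild type mice. In DDAH1-transgenic mice it summed to 47854 and 70135 CPM after PBS and 18623 and 26733 CPM after HDM. Of these 6, 2 were called lower in wild type and 3 in DDAH1-transgenic mice, and 0 higher. The part of endothelial cells in the level of Kit was not tested.

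**Figure D3:**
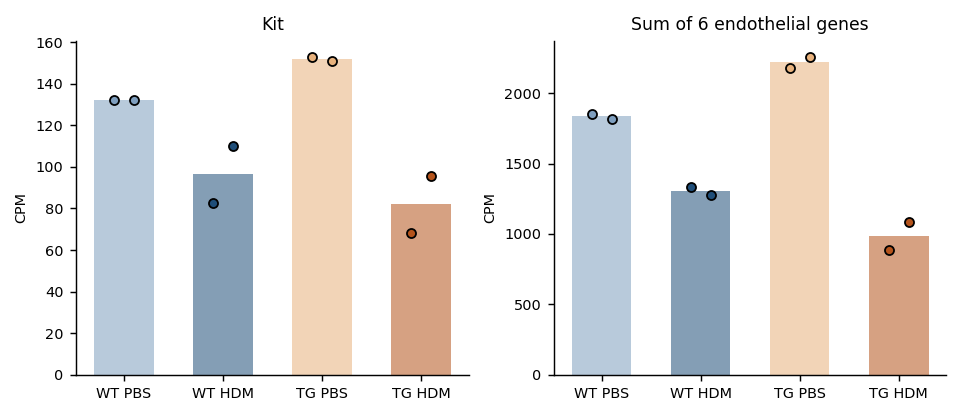
Level of Kit (left) and summed level of 6 endothelial genes (right) in CPM (y axes) by group (x axis), with bars for group means and points for the 2 libraries. Both were lower in every HDM-treated than in every PBS-treated library of the same genotype, from 132 to between 82.8 and 110 CPM for Kit in wild type mice.

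Across the 10 genes, HDM against PBS could be tested for 3 in wild type (Cma1, Cpa3 and Kit) and called 0, where 6.74% of all genes tested were called (4.44% higher and 2.3% lower). Kit was the 1 gene with an unadjusted p under 0.05 there, and DESeq2 also called 0. In DDAH1-transgenic mice 3 were tested (Mcpt2, Cpa3 and Kit) and 2 were called, Mcpt2 higher and Kit lower, by edgeR and by DESeq2, where 13.8% of all genes were called (8.43% higher and 5.35% lower). Since Mcpt2 entered this test only through its counts after HDM, its call adds nothing to this count, and Kit and Cpa3 are the genes that could be read against that share. DDAH1-transgenic against wild type mice called 0 of 2 tested after PBS, beside 0.657% of all genes, and 0 of 3 tested after HDM, beside 2.44%. The interaction called 0, beside 1.76% of all genes, with 4 genes past the filter, of which Mcpt2 gave no estimate because both PBS-treated groups were at 0. In the last 3 comparisons 0 of the genes past the filter had an unadjusted p under 0.05. Without the filter Cpa3 had an unadjusted p of 0.0228 between genotypes after HDM and of 0.0261 in the interaction (adjusted p = 0.201 and 0.261). DESeq2 called 0 in these comparisons, but gave no adjusted p for Mcpt2 and Cpa3 between genotypes after HDM or for Cma1 in the interaction. Between genotypes after HDM, Mcpt2 differed by 0.79 on the log2 scale (standard error 1.14, adjusted p = 0.791, edgeR), and the groups overlapped. Where libraries of 2 groups did not overlap, as for Mcpt1, Mcpt2, Ms4a2 and Kit in wild type, for Mcpt1, Mcpt2, Cpa3 and Kit in DDAH1-transgenic mice and for Mcpt4, Cpa3 and Ms4a2 between genotypes after HDM, the same held for many genes. HDM and PBS did not overlap for 49.7% of genes in wild type (25% higher, 24.7% lower) and for 56.9% in DDAH1-transgenic mice (29.6% higher, 27.3% lower), and the genotypes after HDM for 48% (24.6% higher, 23.4% lower).

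Other granule proteases were as rare. Tpsab1, the second tryptase, had 12 counts and the basophil protease Prss34 3 counts, both in replicate 1 of PBS-treated wild type mice only. Tpsg1, a membrane-bound tryptase, had 1 count in HDM-treated wild type replicate 1 and 16 and 3 in the DDAH1-transgenic libraries after HDM, while Cma2 had 3 counts in PBS-treated DDAH1-transgenic replicate 1 and 1 in HDM-treated DDAH1-transgenic replicate 2. Mcpt9 and Ctsg were at 0 in all 8 libraries, and none of the 6 genes of this list reached the filter. Of the receptors of connective tissue mast cells, Mrgprb2 was at 0 throughout, while its relative Mrgprb1 had between 12 and 28 counts in 7 libraries and 0 in HDM-treated DDAH1-transgenic replicate 1. Cd200r3, a receptor of mast cells and basophils, had at most 5 counts in a library. Hdc, the enzyme that makes histamine and that other leukocytes also use, was well covered, at 51.3 ± 14.1 and 83.1 ± 12.1 CPM after PBS and HDM in wild type and at 45.7 ± 10.4 and 48.2 ± 3.51 CPM in DDAH1-transgenic mice, and passed the threshold in no comparison.

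Some genes of IgE receptor signalling, a list that also holds the receptor chain Fcer1g and the low-affinity receptor Fcer2a, rose with HDM in both genotypes. Of 18 such genes, all tested, 7 rose and 0 fell in wild type (median log2 fold change 0.87, beside 0.02 for all genes and 4.44% of all genes called higher), and 7 rose and 0 fell in DDAH1-transgenic mice (median 1.28, beside 0.03 and 8.43%). Fcer1g, the gamma chain that carries the signal of this and other Fc receptors, stood at 119 ± 25.4 CPM after PBS and 221 ± 9.28 CPM after HDM in wild type, and at 67.0 ± 24.5 and 179 ± 8.94 CPM in DDAH1-transgenic mice. Its log2 fold changes were 0.90 (standard error 0.17, adjusted p = 0.00499) and 1.44 (standard error 0.26, adjusted p = 0.00396) by edgeR. With an offset for gene length, Fcer1g was not called in DDAH1-transgenic mice, with or without a block for the replicate number. Plcg2, a phospholipase of the pathway, rose by 1.37 and 2.04 (adjusted p = 0.0180 and 0.00455) and the adaptor Lcp2 by 1.00 and 1.38 (adjusted p = 0.0141 and 0.0247) in wild type and DDAH1-transgenic mice. Fcer2a, the low-affinity IgE receptor of B cells, rose by 1.24 in wild type (adjusted p = 0.00975), and the phosphatase Ptpn6 by 2.21 in DDAH1-transgenic mice (adjusted p = 0.00192). Among the 11 that did not pass in a genotype, Plcg1, a phospholipase, stood at -0.59 and -0.61 (adjusted p = 0.166 and 0.177) in wild type and DDAH1-transgenic mice. Most of these genes are used by leukocytes of many kinds, and the eosinophil list, which summed to between 97.1 and 129 CPM after PBS, summed to between 181 and 306 CPM after HDM, with 3 of 8 tested genes called higher in wild type and 2 of 7 in DDAH1-transgenic mice and its granule gene Epx at 0 in 7 libraries and at 1 count in the other. The neutrophil list went the other way in wild type, from 462 and 436 CPM after PBS to 215 and 221 CPM after HDM. Of its 9 tested genes there, 4 were called lower and 0 higher. In DDAH1-transgenic mice it summed to 186 and 210 CPM after PBS and 226 and 238 CPM after HDM, with 1 of 7 tested genes called higher. The part of other leukocytes in these values was not tested.

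The count of IgE signalling genes depended on single libraries. In wild type it was 3 without PBS-treated replicate 1, 4 without PBS-treated replicate 2 and 3 in a fit on all 8 libraries. In DDAH1-transgenic mice it was 0 without PBS-treated replicate 1, 2 without PBS-treated replicate 2 and 4 with an offset for gene length, but 10 without HDM-treated replicate 1 and 10 in the fit on all 8 libraries. DESeq2 called 9 in each genotype, as did the fit without the low-count filter. The number of all genes called also fell without either PBS-treated library of both genotypes, but hardly moved without HDM-treated DDAH1-transgenic replicate 1. In wild type it was 1020 of 15123, and 703 of 15868 in the fit on all 8 libraries. In DDAH1-transgenic mice it was 2079 of 15086, 1436 of 15086 with the offset for gene length and 2830 of 15868 in the fit on all 8 libraries. Between genotypes, 0 of 18 passed the threshold after PBS (median -0.44) or after HDM (median -0.14), and 0 in the interaction, by edgeR. An unadjusted p under 0.05 was reached by 4 of the 18 after PBS, by 0 after HDM and by 2 in the interaction, and DESeq2 called 0 in both genotype comparisons. After PBS, 1 gene was called lower without the filter (Fcer1g), without DDAH1-transgenic replicate 2 (Fcer1g) and without DDAH1-transgenic replicate 1 (Lcp2). After HDM, 1 was called lower with the length offset and replicate block together (Fcer1g) and 2 without DDAH1-transgenic replicate 2 (Fcer2a and Lcp2).

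**Figure D4:**
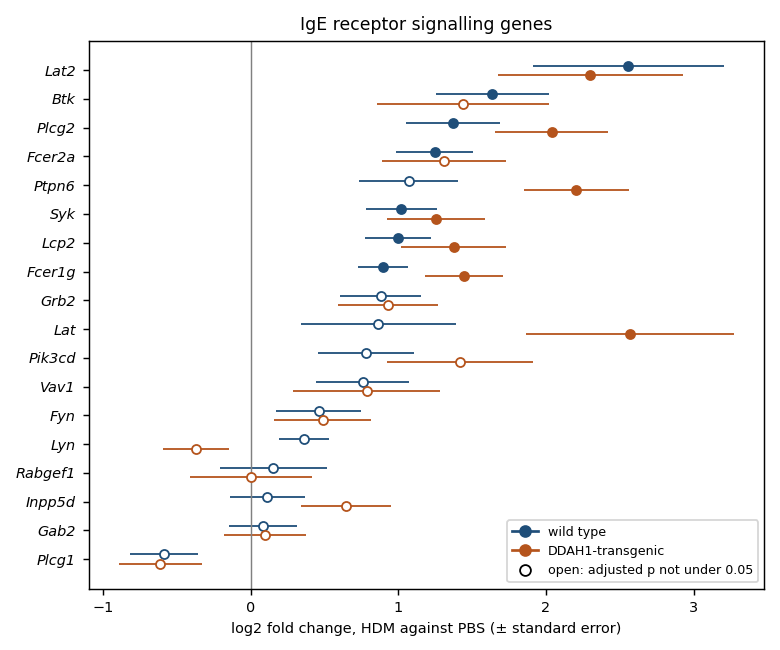
Log2 fold change of HDM against PBS with its standard error (x axis) for 18 genes of IgE receptor signalling (y axis) in wild type (blue) and DDAH1-transgenic mice (orange), filled where the adjusted p passed the threshold. In each genotype 7 genes are filled, all to the right of 0.

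Among growth factors and cytokines of mast cells, Il33, an alarmin that activates mast cells through the receptor Il1rl1, passed the threshold in 4 of the 5 comparisons. It stood at 130 ± 21.1 CPM after PBS and 560 ± 49.1 CPM after HDM in wild type, and at 148 ± 6.00 and 256 ± 7.65 CPM in DDAH1-transgenic mice. It rose with HDM in both genotypes (log2 fold changes of 2.10 and 0.82, adjusted p = 5.58e-07 and 0.0155), and the difference between these rises was -1.31 (standard error 0.23, adjusted p = 0.00435, edgeR). Csf2rb2, a receptor chain for IL-3, also rose in both (0.94 and 1.32, adjusted p = 0.0208 and 0.00924), and Csf2rb, the chain shared by the receptors for IL-3, IL-5 and GM-CSF, in DDAH1-transgenic mice (1.27, adjusted p = 0.00630). Kitl, the ligand of Kit, fell with HDM by 0.71 on the log2 scale in DDAH1-transgenic mice (adjusted p = 0.0280), the genotype in which Kit was called lower. In all, 2 of 9 tested genes of this list of 14 rose in wild type, and 3 rose and 1 fell of 9 in DDAH1-transgenic mice, beside 4.44% of all genes called higher in wild type and 8.43% higher and 5.35% lower in DDAH1-transgenic mice. The mast cell growth factors Il3 and Il9 were at 0 in every library. Il4, which had between 0 and 6 counts after PBS, had 8 and 48 in HDM-treated wild type and 6 and 6 in HDM-treated DDAH1-transgenic mice. Il13 had 1 and 0 counts in PBS-treated and 28 and 9 in HDM-treated wild type mice. In DDAH1-transgenic mice it had 0 and 0 after PBS and 0 and 2 after HDM. Il5 had 0 and 10 counts in PBS-treated and 7 and 4 in HDM-treated wild type mice. In DDAH1-transgenic mice it had 0 and 1 after PBS and 0 and 0 after HDM.

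Of 8 tested transcription factors, 1 rose in wild type and 1 fell in DDAH1-transgenic mice, beside 4.44% of all genes called higher in the first and 5.35% called lower in the second. Mitf, which drives mast cell genes and also those of pigment cells and macrophages, rose with HDM in wild type (1.67, standard error 0.42, adjusted p = 0.0283, edgeR). Gata2, used by mast cells and by endothelium, fell in DDAH1-transgenic mice by 1.20 (standard error 0.24, adjusted p = 0.00674). Gata1 had 8 counts in PBS-treated wild type replicate 1, 3 in HDM-treated DDAH1-transgenic replicate 2 and 0 elsewhere. Of 11 tested genes for granule matrix and mediators, 2 rose in wild type and 1 in DDAH1-transgenic mice, beside 4.44% and 8.43% of all genes. Srgn, the proteoglycan core that holds proteases in granules, and Ptgs1, a prostaglandin synthase, rose in wild type (0.81 and 1.23, adjusted p = 0.00586 and 4.43e-04), and Alox5ap, which serves leukotriene synthesis, in DDAH1-transgenic mice (1.23, adjusted p = 0.0475). After HDM, Srgn was lower in DDAH1-transgenic than in wild type mice (-0.89, adjusted p = 0.0393).

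Of 9 tested surface receptors and homing molecules, 2 rose in wild type and 4 in DDAH1-transgenic mice, where 4.44% and 8.43% of all genes were called higher. Cd69, an early activation marker of leukocytes, rose by 2.55 and 2.56 (adjusted p = 0.0358 and 0.00884) and Itga4, an integrin chain used for homing, by 0.69 and 1.14 (adjusted p = 0.00860 and 0.00387). Cd63, a membrane protein of granules and lysosomes, rose by 2.11 in DDAH1-transgenic mice (adjusted p = 6.67e-04) and was higher after HDM in DDAH1-transgenic than in wild type mice, at 121 ± 35.4 against 39.8 ± 5.49 CPM (1.64, standard error 0.27, adjusted p = 0.00849, edgeR). None of these genes is particular to mast cells. Summed, the 9 scarce genes above came to 14.7 and 4.62 CPM in HDM-treated wild type and 3.74 and 8.67 CPM in HDM-treated DDAH1-transgenic mice, against 3.62 and 4.16 CPM and 3.69 and 5.07 CPM after PBS.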

How the data were processed

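Lung RNA pooled from 4 mice in each of 4 groups was sequenced as 2 libraries per pool, and groups and replicates were taken from the sample titles. The authors amplified 10 ng of RNA, sequenced single reads for 50 cycles, aligned them with TopHat to mm10 and deposited raw read counts in the coding region of 23469 genes. CASAVA 1.8 is named in the submitters' processing notes; the version of the aligner and the annotation are not given in the sources used here. All columns of per-library counts were used. Symbols came from RefSeq (GRCm38.p6) for 23372 genes, leaving 97 unnamed, and lengths from GENCODE, for 21145 genes.

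Each comparison was fitted on its own 4 libraries, and the interaction on all 8, with edgeR 4.0.16 (R 4.3.3; quasi-likelihood test, TMM, filterByExpr with a count minimum of 10). P-values were adjusted over all genes tested by the Benjamini-Hochberg method, with a threshold of 0.05. The fit of HDM against PBS in wild type mice was tested on simulated data with a common spread for all genes. The other comparisons were not. A fold against a group at 0 is a lower bound against 3 counts over the group. It takes the counts of the other group as observed, so that counting error and the spread between libraries are left out. Ratios by counting error have exact intervals.

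The 10 genes and all lists were chosen with earlier results of these data known. The genes named are the 10, up to 4 of a list per comparison by smallest adjusted p among those past the threshold, close relatives of the 10, the 5 genes most like Cpa3, at most 3 markers of another cell type and Ddah1, Xist and Ddx3y. Hdc, Mrgprb1, Mrgprb2, Cd200r3, Gata1, Il3, Il4 and Il9 are named from the lists beyond that rule, and Plcg1, Il5 and Il13 after their values were seen. Alternatives were RLE size factors, no filter on low counts, DESeq2 1.42.0, a block for the replicate number, totals that leave out ribosomal RNA and haemoglobin genes, an offset for gene length (with and without the block), a fit on all 8 libraries, a log2 fold change of at least 1 and leaving out each library. The counts of IgE signalling genes under these were added after the data had been seen.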

Additional observations from a re-analysis of the deposited data

How the results depend on the processing

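In wild type mice, 0 of the 10 genes passed the threshold for HDM against PBS, 1 (Mcpt2) did without the low-count filter, and between 0 and 2 did when 1 library was left out, with 2 (Mcpt2 and Kit) without HDM-treated replicate 2. In DDAH1-transgenic mice the count of 2 became 1 with the offset for gene length (Mcpt2), 1 with that offset and the replicate block together (Kit) and 1 when the change had to reach 1 on the log2 scale (Mcpt2), and lay between 0 and 1 when 1 library was left out. Between genotypes after HDM it lay between 0 and 1 when 1 library was left out (Cpa3, without HDM-treated DDAH1-transgenic replicate 2). The remaining alternatives left the counts as they were, at 0 throughout between genotypes after PBS and in the interaction. With the replicate block the counts were 0, 2, 0, 0 and 0 in the 5 comparisons. Replicate numbers share only a number, as the deviations of same-numbered libraries correlated between -0.0214 and 0.0317 over 15868 genes. Without either PBS-treated library, the number of all genes called for HDM against PBS in DDAH1-transgenic mice also fell. The causes of these changes were not tested.

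Of the fold changes, leaving out 1 library gave Cpa3 in wild type values from -0.40 (without HDM-treated replicate 1) to 2.12, Cpa3 between genotypes after PBS from -0.41 (without DDAH1-transgenic replicate 2) to 1.28, and Kit between genotypes after HDM from -0.45 to 0.030 (without wild type replicate 2), with 0.012 without DDAH1-transgenic replicate 1. The interaction of Cma1, at -0.56 (standard error 3.30), was 0.044 with the replicate block and lay from -6.23 to 6.51 when 1 library was left out. A library left alone in its group was taken to vary like those of the other group. Depth limits all genes but Kit, since 3 counts over a group are worth between 0.135 and 0.154 CPM.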
